A study of Mus musculus with 12 samples.

Results

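Transcripts of 10 genes of purinergic signaling were followed in subdural CNS-associated macrophages (sdCAMs), which line the leptomeninges and the spaces around vessels. The 10 genes were taken by name from the 56735 gene names of the count table. They comprised the ATP-gated channels P2rx4 and P2rx7, the nucleotide-sensing G protein-coupled receptors P2ry2, P2ry6, P2ry13 and P2ry14, the ectonucleotidases Entpd1 and Nt5e, and the adenosine receptors Adora2a and Adora3. All mice were Mrc1CreERT2/CreERT2:R26tdT/tdT animals given tamoxifen, so that both copies of Mrc1, the gene of CD206, carried CreERT2 and cells that expressed Mrc1 at induction, with their progeny, carried the tdTomato (tdT) reporter. After 4 weeks the mice received either vehicle or BLZ945, an inhibitor of the CSF-1 receptor, for 7 days (BLZ945 at 200 mg per kg), and 8 weeks later CD206+ cells were sorted from brain freed of choroid plexuses. The age of the mice is not given in the labels. The 12 bulk RNA-seq libraries were tdT+ cells of 4 vehicle mice, tdT+ cells of 4 BLZ945 mice and tdT- cells of the same 4 BLZ945 mice. Mice are named by their labels F1, F2, M1 and M2, and the vehicle mice were other animals than the BLZ945 mice with the same labels. Cells that had escaped recombination could also be tdT-, and the reporter therefore limits how far the tdT- sort stands for newly arrived cells.

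Cells release ATP and other nucleotides when they are active, stressed or damaged, and neighboring cells sense them through P2X channels and P2Y receptors. Ectonucleotidases on the cell surface remove the phosphates step by step, with CD39 (Entpd1) converting ATP and ADP to AMP and CD73 (Nt5e) converting AMP to adenosine, which acts on its own receptors. In brain macrophages this system is best known for microglia, whose processes move toward ATP through the ADP receptor P2Y12, and for P2X7, which triggers inflammasome activation at high ATP.

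Libraries held between 19969308 and 23395058 counts, and a floor of 3 counts corresponded to between 2.60 and 3.16 normalized counts, which are counts divided by DESeq2 size factors. The labeled cell type was checked by its markers. All 10 border macrophage markers listed were counted, with summed levels between 331877 and 379285 normalized counts in vehicle tdT+ libraries, between 371449 and 417953 in BLZ945 tdT+ libraries and between 222588 and 288699 in tdT- libraries. Csf1r held the largest share, with means of 169217 in BLZ945 tdT+ and 141088 in tdT- cells. Single markers differed more, such as Cd163 (42727 and 6088) and Lyve1 (39592 and 9638). Between these 2 groups, 8 of the 10 were lower in tdT- libraries without overlap and 1, Cx3cr1, was higher. The 8 microglia markers listed were counted as well, and each was higher in every tdT- library than in every BLZ945 tdT+ library. Their sum lay between 68538 and 102848 normalized counts in vehicle tdT+ cells, between 101328 and 133539 in BLZ945 tdT+ cells and between 259601 and 537982 in tdT- cells. None of the 8 was at 0 in any group. The tdT- library F2 held 422981 normalized counts of the 7 neutrophil markers, whereas no other library exceeded 69.4. In bulk samples, fewer cells of a type and less RNA per cell cannot be told apart. Vehicle and BLZ945 libraries carry different words in their names, and a difference in the time or handling of isolation cannot be told apart from the treatment in comparisons with vehicle.

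The first question was which of these receptors and enzymes sdCAMs transcribe. Levels were compared between genes as normalized counts per kilobase of merged exons. In vehicle tdT+ cells the ADP receptor gene P2ry13 was highest, at 5941 ± 501 per kb (SD, n = 4), followed by P2ry6, the UDP receptor, at 4189.6 ± 387 per kb. Their ranges did not overlap each other or those of the genes that followed. P2rx7 at 1694 ± 132, Entpd1 at 1436 ± 253 and P2rx4 at 1249.7 ± 102 per kb came next, and neighbors in this order overlapped in their ranges. P2ry14, the receptor for UDP-glucose, was far lower at 28.7 ± 17.01 per kb and overlapped with Adora3 at 22.1 ± 16.3 per kb. The other three genes, P2ry2, Nt5e and Adora2a, were near or at 0.

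The order was partly different in the other groups. In BLZ945 tdT+ cells P2ry13 at 6833 ± 1248 per kb and P2ry6 at 3999 ± 382 per kb again led without overlap. Entpd1 at 1872 ± 98.4 per kb then ranked above P2rx7 at 1753 ± 42.9 per kb, although their ranges overlapped. In tdT- cells P2rx7 ranked below P2rx4, at 833 ± 165 against 1171 ± 301 per kb, with ranges that overlapped narrowly. Adora3 reached 213 ± 71.7 per kb there and stood apart from P2ry14 at 31.6 ± 1.18 per kb. The plot of levels per kb sets the 3 groups side by side.

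**Figure D1:**
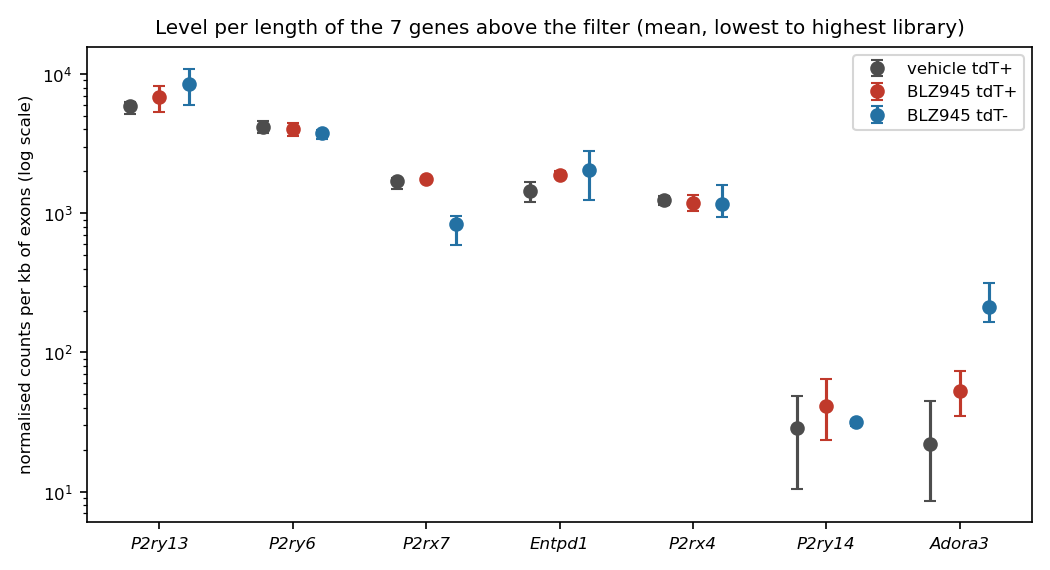
Level of the 7 genes that passed the filter on low counts, in normalized counts per kb of merged exons on a log axis, in vehicle tdT+ (gray), BLZ945 tdT+ (red) and BLZ945 tdT- (blue) cells. Points are means of 4 libraries and bars run from the lowest to the highest library. P2ry13 and P2ry6 are highest in every group, P2rx7 is lower and Adora3 higher in tdT- cells, and P2ry2, Nt5e and Adora2a are not drawn.

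Several of these genes are neighbors in the genome. In GRCm39, the build of the count table, P2rx7 (chr5:122781974-122829495) and P2rx4 (chr5:122845607-122867801) lie on the plus strand with 16111 bases between them. P2ry6 (chr7:100586837-100623856) and P2ry2 (chr7:100645775-100662073) lie on the minus strand with 21918 bases between them. P2ry14 (chr3:59021276-59061039) and P2ry13 (chr3:59115313-59118303) lie on the minus strand of chromosome 3, next to P2ry12, which begins 5389 bases beyond P2ry13. Adora3 (chr3:105778174-105816242, plus strand), Entpd1 (chr19:40600810-40730046, plus strand), Nt5e (chr9:88209250-88254145, plus strand) and Adora2a (chr10:75152711-75170618, plus strand) stand alone. Some neighbors differed widely in level: P2ry6 was counted in every library at 9922 normalized counts or more and P2ry2 at 15.04 or less. P2ry14 and P2ry13 also differed, with means of 317 and 15020 normalized counts in vehicle tdT+ cells. Other neighbors lay closer together there, with means of 10115 for P2rx7 and 8779 for P2rx4, and of 15020 for P2ry13 and 16492 for P2ry12.

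Next, tdT- and tdT+ cells of the same BLZ945 mice were set against each other, to ask whether purinergic genes differ between the 2 sorts. Origin and niche cannot be separated here from unrecombined cells or from the difference in microglia markers. Of the 10 genes, 7 passed the filter on low counts, and 2 of these passed the test in DESeq2 (adjusted p no higher than 0.05), P2rx7 lower and Adora3 higher in tdT- cells. Of all 13724 genes tested, 6.38% passed, with 3.51% lower and 2.86% higher. Both genes were also differentially expressed genes (DEGs), that is, their shrunken log2 fold change also reached 1 or -1, as it did for 2.25% of all genes (1.06% lower and 1.19% higher). Their groups did not overlap, as was the case for 9.35% of all genes. The median shrunken log2 fold change of the 7 genes was -0.01, beside 0.001 for all genes tested.

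P2rx7 encodes the P2X7 channel, which opens at high ATP and feeds the NLRP3 inflammasome. Its level was 10779, 10462, 10152 and 10469.8 normalized counts in BLZ945 tdT+ libraries F1, F2, M1 and M2. In tdT- libraries it was 5182, 3527, 5514 and 5662. Every tdT- library thus held less P2rx7 than every tdT+ library, and the tdT+ libraries were close to each other. The mean fell from 10466 ± 256 to 4971 ± 984 (SD, n = 4), a shrunken log2 fold change of -1.04 ± 0.14 (SE, adjusted p = 1.75e-12), or 2.06-fold lower. With edgeR the adjusted p was 8.92e-04. The tdT- library F2, which held the neutrophil transcripts and the lowest border macrophage marker sum, had the lowest value. Without it the log2 fold change was -0.93 with an adjusted p of 3.11e-25, short of the size required of a DEG. P2rx7 was lower in tdT- cells in all 4 mice. Of the 10 border macrophage markers, 8 were also lower in every tdT- library than in every BLZ945 tdT+ library. The 1 marker that was higher without overlap was Cx3cr1, at 18811 or more in tdT- and 16145 or less in BLZ945 tdT+ libraries. The mean of Aif1 was also higher in tdT- cells, at 17872 against 12713 normalized counts. Neither the part of these markers nor that of the neutrophil transcripts, beyond the fit without F2, was tested.

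Adora3 encodes the A3 adenosine receptor, which couples to inhibitory G proteins. It was counted at 273, 130.0, 164 and 222 normalized counts in BLZ945 tdT+ libraries F1, F2, M1 and M2. In tdT- libraries it was 754, 623, 1186 and 619.6. Again all tdT- libraries lay on one side, above all tdT+ libraries, and M1 was the highest. The mean rose from 197 ± 63.4 to 796 ± 267 (SD, n = 4), a shrunken log2 fold change of 1.73 ± 0.55 (SE, adjusted p = 0.00238), or 3.32-fold. The edgeR test gave a log2 fold change of 1.99 and an adjusted p of 0.0577, so this call depended on the test. It was kept in all 12 fits that left out 1 library. Over the 19 other settings the log2 fold change lay between 1.34 and 2.01 and the adjusted p between 1.48e-05 and 0.0577. The 2.01 is the unshrunken value of the DESeq2 fit given above, and the edgeR value is not shrunken either.

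The 8 microglia markers, like Adora3, were higher in tdT- than in BLZ945 tdT+ libraries. Their sum was 259601, 262485, 537982 and 380252 normalized counts in tdT- libraries F1, F2, M1 and M2, and M1 was the highest in both. The order of the other tdT- libraries differed. M2 had the next highest sum but the lowest Adora3, at 619.6, and F1 the lowest sum but the next highest Adora3, at 754. The part of the microglia markers in the difference in Adora3 was not tested. The 3 genes whose variance-stabilized levels followed Adora3 most closely over the 12 libraries, among 9590 genes with a mean of at least 100 normalized counts, were Lrrc3 (Pearson's r = 0.968), Selplg (0.967) and Sparc (0.964), of which Sparc is on the microglia marker list. For P2rx7 they were Pla2g7 (0.977), Clec4n (0.974) and B3galnt1 (0.969). These correlations describe libraries of groups that differ in level and carry no test.

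**Figure D2:**
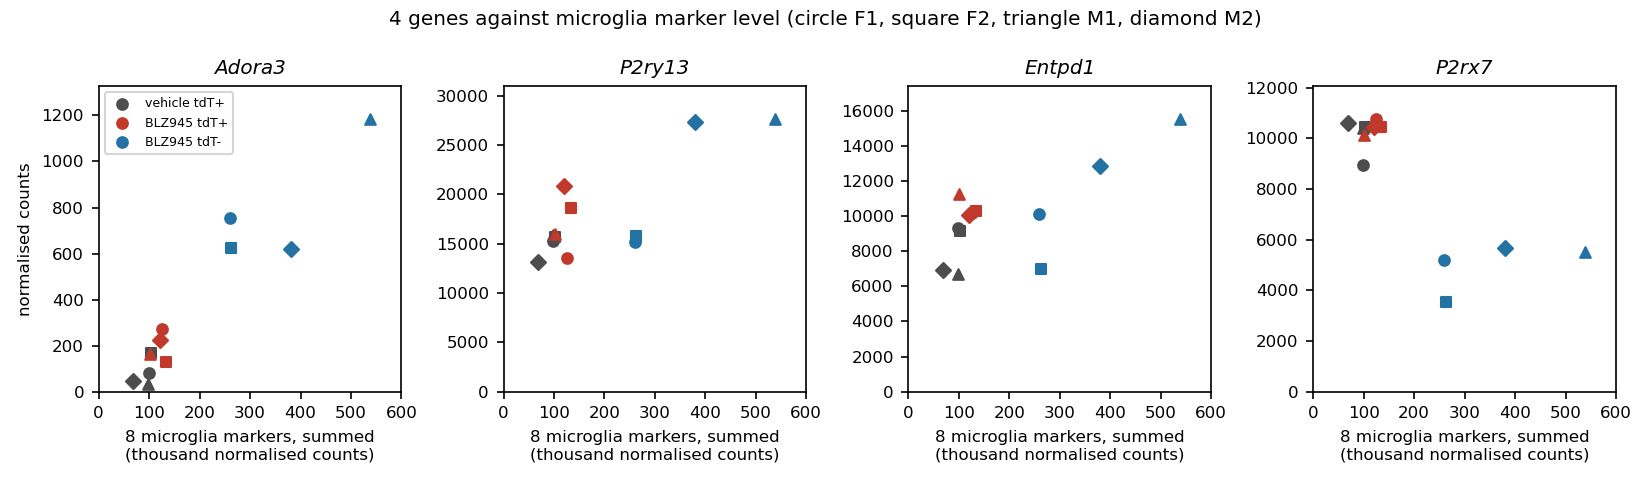
Normalized counts of Adora3, P2ry13, Entpd1 and P2rx7 (y axes, from 0) against the summed normalized counts of the 8 microglia markers (x axis) for the 12 libraries, colored by group and shaped by mouse label. The tdT- libraries lie to the right, with M1 (triangle) furthest, where Adora3 and Entpd1 have their highest values, whereas P2rx7 lies between 3527 and 5662 in the tdT- libraries.

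The DNA upstream of these 2 genes is shown because they were the ones called and moved in opposite directions. The windows are the 250 bases before the start of transcription given by RefSeq for GRCm38.p6, a different build from that of the count table, and for P2rx7 the more upstream of 2 starts. They lie at chr5:122643677-122643926 for P2rx7 and chr3:105904171-105904420 for Adora3, both on the plus strand. Capitals mark GAGGAAG or its reverse complement CTTCCTC, the binding sequence of the macrophage factor PU.1, and TGACTCA or its reverse complement TGAGTCA, the AP-1 sequence.
P2rx7: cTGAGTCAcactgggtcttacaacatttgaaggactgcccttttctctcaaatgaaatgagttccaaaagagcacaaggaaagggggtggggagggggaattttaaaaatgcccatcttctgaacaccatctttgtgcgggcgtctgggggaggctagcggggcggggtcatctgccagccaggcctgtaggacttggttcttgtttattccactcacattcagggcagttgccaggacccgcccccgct
Adora3: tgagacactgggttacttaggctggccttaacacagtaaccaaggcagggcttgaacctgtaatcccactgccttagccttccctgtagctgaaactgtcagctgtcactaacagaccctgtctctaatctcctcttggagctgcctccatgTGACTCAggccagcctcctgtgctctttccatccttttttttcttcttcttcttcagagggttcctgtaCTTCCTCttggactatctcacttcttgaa
Adora3 held both sequences and P2rx7 held the AP-1 sequence at its upstream edge. RefSeq windows were found for 8 of the 10 genes (14 windows), all but P2ry6 and Adora2a. GAGGAAG on either strand was in 4 of the 14 windows (Adora3, Entpd1, P2ry13 and P2ry14) and in 10.6% of all 32851 windows. TGACTCA was in 3 of 14 (Adora3, P2rx7 and P2ry14) and in 4.46% of all windows, and the MAF half-site TGCTGAC was in 0 of 14 and in 3.81% of all windows. Genes that did and did not differ between groups both held these letters, and a match is not evidence of binding.

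P2rx4, the neighbor of P2rx7 and the other P2X channel of macrophages, did not share its difference. It was counted at 8194, 9497.5, 7257 and 8379 normalized counts in BLZ945 tdT+ libraries F1, F2, M1 and M2. In tdT- libraries it was 6979, 6560.3, 8140.2 and 11237. The groups overlapped widely, and the shrunken log2 fold change was -0.01 ± 0.14 (SE, adjusted p = 0.993). The ratio of P2rx7 to P2rx4 counts, which needs no normalization between libraries, ran from 1.10 to 1.40 in BLZ945 tdT+ libraries, from 0.949 to 1.31 in vehicle tdT+ libraries and from 0.504 to 0.743 in tdT- libraries. The tdT- range therefore overlapped with neither tdT+ range. This ratio was chosen after the values were seen and was not tested.

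P2ry6, P2ry13 and P2ry14 did not pass in this comparison. P2ry6 was even across the groups, with values from 10438 to 12959 normalized counts in BLZ945 tdT+ libraries and from 9922 to 11523 in tdT- libraries (log2 fold change -0.08 ± 0.09, SE, adjusted p = 0.821). P2ry13 was counted at 13597, 18603, 16015 and 20878 in BLZ945 tdT+ libraries and at 15211, 15793, 27683 and 27380.2 in tdT- libraries. The 2 tdT- libraries of mice labeled M stood above all others and those of mice labeled F lay within the tdT+ range. Its log2 fold change was 0.24 ± 0.18 (SE, adjusted p = 0.467). The 2 libraries with high P2ry13 were those with the highest microglia marker sums, whose part was not tested. P2ry14 lay between 262 and 715 in BLZ945 tdT+ libraries and between 330.1 and 359 in tdT- libraries, a far narrower range (log2 fold change -0.11 ± 0.27, SE, adjusted p = 0.845).

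The ectonucleotidase Entpd1 was counted at 10192, 10289, 11254 and 10043 normalized counts in BLZ945 tdT+ libraries F1, F2, M1 and M2. In tdT- libraries it was 10101, 6964, 15536 and 12874.5. The tdT- libraries thus fell on both sides of the tdT+ libraries, and the log2 fold change of 0.08 ± 0.17 (SE) had an adjusted p of 0.902. Its lowest value was in F2, the library with neutrophil transcripts, and its highest in M1, the library with the most microglia marker counts.

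**Figure D3:**
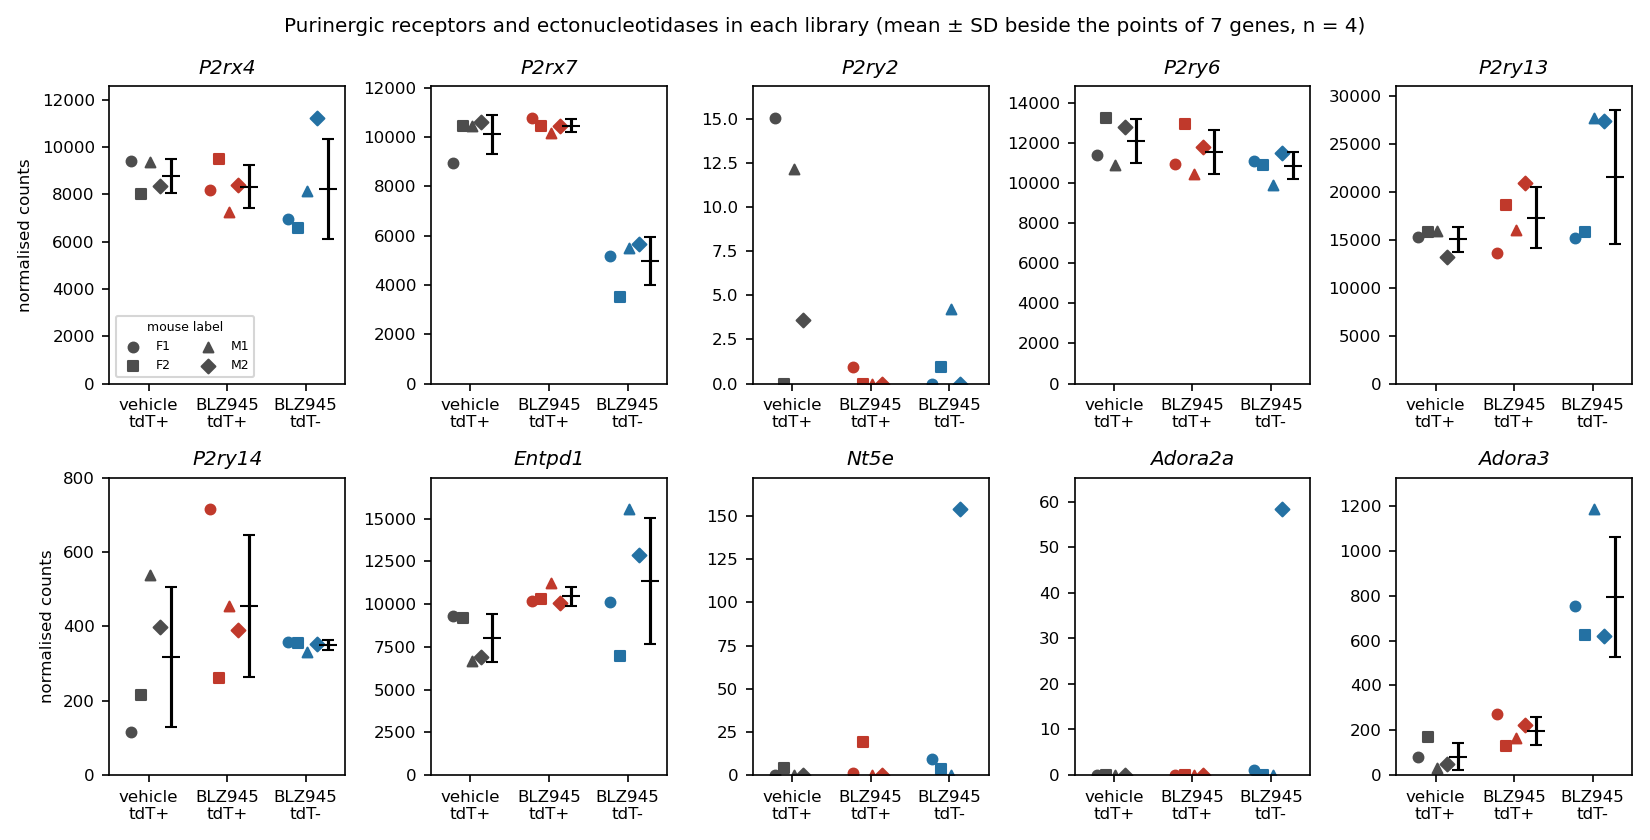
Normalized counts (y axes, from 0, each with its own scale) of the 10 genes in every library, by group (x axis) and mouse label (symbol). Bars beside the points of the 7 genes that passed the filter are the mean ± SD of 4 libraries. The tdT- libraries lie below both tdT+ groups for P2rx7 and above both for Adora3, and P2ry2, Nt5e and Adora2a are near or at 0 in most libraries.

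The comparison of tdT+ cells of BLZ945 mice with tdT+ cells of vehicle mice asks what depletion and repopulation left behind in cells that kept the label. None of the 7 genes passed in DESeq2 or in edgeR, and none was a DEG, beside 0.955% of all genes tested that passed and 0.168% that were DEGs in DESeq2, and 1 of 7 (Adora3) had an unadjusted p under 0.05 by either tool. P2rx7 was nearly level, at 8942, 10460.1, 10432.5 and 10625 normalized counts in vehicle libraries F1, F2, M1 and M2, with a shrunken log2 fold change of 0.02 ± 0.09 (SE, adjusted p = 0.9997). P2rx4, P2ry6, P2ry13 and P2ry14 had shrunken log2 fold changes between -0.04 and 0.07, and their groups overlapped. Of these, P2ry14 had an unshrunken value of 0.52 ± 0.48 (SE, adjusted p = 0.999).

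Entpd1 and Adora3 had the lowest adjusted p of the 7 genes in this comparison. Entpd1 was counted at 9317.5, 9154, 6686 and 6904 normalized counts in vehicle libraries F1, F2, M1 and M2. All 4 lay below all 4 BLZ945 tdT+ libraries, and 6.72% of all genes tested had groups that did not overlap in either direction. The log2 fold change was 0.38 ± 0.20 (SE) unshrunken and 0.16 ± 0.18 shrunken, with an adjusted p of 0.644. Adora3 was counted at 82.2, 168, 32.0 and 47.8 in vehicle libraries, where only F2 reached into the BLZ945 tdT+ range. Its log2 fold change was 1.26 ± 0.51 (SE) unshrunken and 0.08 ± 0.17 shrunken, with an adjusted p of 0.349. Without vehicle library F2 the shrunken value was 1.61 with an adjusted p of 0.00669, so this single library decided the call. Of the 8 microglia markers, 3 were higher in every BLZ945 tdT+ library than in every vehicle library.

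Finally, tdT- cells were set against the undisturbed tdT+ population of vehicle mice, with the same tdT- libraries as in the comparison within BLZ945 mice. Again 2 of 7 genes passed (6.76% of all genes tested, 3.27% higher and 3.49% lower), P2rx7 lower and Adora3 higher. The groups of both did not overlap, as for 9.7% of all genes. Adora3 differed by 3.11 ± 0.52 on the log2 scale (SE, adjusted p = 1.70e-08), or 8.61-fold, from 82.6 ± 60.9 to 796 ± 267 normalized counts (SD, n = 4), and here the edgeR adjusted p was 0.00385. P2rx7 differed by -0.99 ± 0.14 (SE, adjusted p = 1.50e-11), or 1.99-fold lower, from 10115 ± 787 normalized counts. It fell just short of the log2 fold change required of a DEG, whereas Adora3 was a DEG, and 2.55% of all genes were DEGs in this comparison (1.48% higher and 1.07% lower).

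P2ry13 and Entpd1 lay close to the threshold in this comparison. P2ry13 was counted at 15275, 15739, 15905 and 13161 normalized counts in vehicle libraries, below the 2 tdT- libraries labeled M and level with those labeled F. Its log2 fold change was 0.43 ± 0.19 (SE, adjusted p = 0.0890). Without tdT- library F1 the adjusted p was 0.0110, and without F2 it was 0.0143. The log2 fold change of Entpd1 was 0.42 ± 0.20 (SE, adjusted p = 0.121), and without tdT- library F2, the one with neutrophil transcripts, it was 0.63 with an adjusted p of 8.14e-04. P2rx4, P2ry6 and P2ry14 had log2 fold changes of -0.07, -0.14 and 0.04, with adjusted p of 0.905, 0.492 and 0.968.

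**Figure D4:**
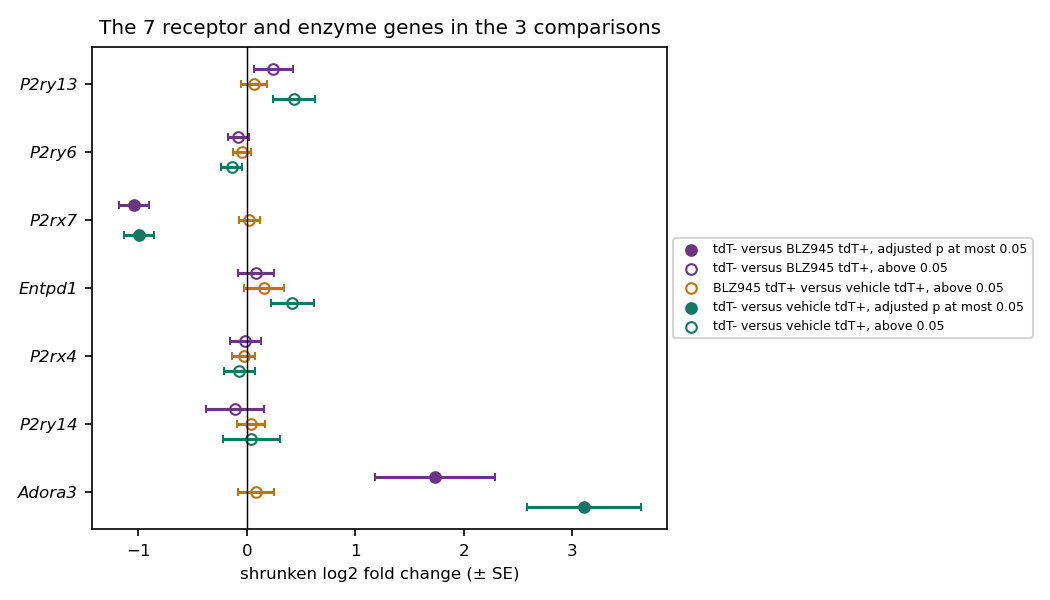
Shrunken log2 fold changes with their standard errors (x axis) of the 7 genes that passed the filter (y axis) in the 3 comparisons. Filled points passed in DESeq2. Only P2rx7, near -1, and Adora3, at 1.73 and 3.11, are filled, and both only where tdT- cells are compared.

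The 3 genes that did not pass the filter were near or at 0 in most libraries. P2ry2, a receptor for ATP and UTP, had 15, 0, 14 and 4 counts in vehicle libraries F1, F2, M1 and M2 and at most 4 counts in any BLZ945 library. Nt5e, which encodes CD73, had 161 counts in tdT- library M2 and 21 counts in BLZ945 tdT+ library F2, and no more than 9 elsewhere. Adora2a, an adenosine receptor that raises cyclic AMP, had 61 counts in the same tdT- library M2, 1 count in tdT- library F1 and 0 in the other 10 libraries. A count of 0 allows a level of up to 3 counts in a library, so low transcription of these genes was not detectable at this depth. The 2 steps of the ectonucleotidase chain were thus counted at very different levels, with Entpd1 at 1436 ± 253 and Nt5e at 0.115 ± 0.230 normalized counts per kb in vehicle tdT+ cells (SD, n = 4).

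Other genes of the pathway were counted from lists of receptors, enzymes, transporters, nucleotide release channels and inflammasome genes. Of 53 such genes listed, 37 passed the filter. In tdT- against BLZ945 tdT+ cells 2 of 37 were higher and 5 lower in DESeq2, beside 2.86% and 3.51% of all genes tested. In BLZ945 tdT+ against vehicle tdT+ cells the count was 0 of 37, beside 0.955% of all genes, with 5 of 37 under an unadjusted p of 0.05, and with edgeR it was 0 with 5 under an unadjusted p of 0.05. In tdT- against vehicle tdT+ cells 5 were higher and 1 lower, beside 3.27% and 3.49% of all genes. Of the other P2X receptors, P2rx2, P2rx3 and P2rx5 had 0 counts in all libraries, and P2rx1 did not exceed 169 normalized counts. The other adenosine receptors, Adora1 and Adora2b, passed the filter but did not exceed 75.5 and 202 normalized counts, and neither passed the test in any comparison. The other P2Y receptor with a high level was P2ry12, between 13222 and 18013 normalized counts in vehicle tdT+, between 20587.5 and 23924.5 in BLZ945 tdT+ and between 42296 and 106728 in tdT- libraries (log2 fold change 1.48 ± 0.29, SE, adjusted p = 1.78e-06 within BLZ945 mice). P2ry12 is itself 1 of the 8 microglia markers. Its counts were 2.48 to 3.86 times those of its neighbor P2ry13 in tdT- libraries and 1.11 to 1.56 times in BLZ945 tdT+ libraries.

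Among surface enzymes, Cd38 was lower in tdT- cells than in both tdT+ groups. CD38 uses NAD and produces cyclic ADP-ribose and nicotinamide, and it feeds a route to adenosine that does not need CD39. It was counted between 16598 and 18597 normalized counts in vehicle tdT+, between 12199 and 16575 in BLZ945 tdT+ and between 3592 and 5524 in tdT- libraries. No group overlapped with another. The log2 fold change was -1.65 ± 0.13 (SE, adjusted p = 1.04e-32) against BLZ945 tdT+ cells and -2.004 ± 0.13 (SE, adjusted p = 6.07e-48) against vehicle tdT+ cells. Between both tdT+ groups it was -0.25 ± 0.14 (SE, adjusted p = 0.294). That last difference passed when only these 8 libraries were fitted, with an adjusted p of 0.0280. Enpp4, an ectoenzyme that splits dinucleotides, was lower in tdT- than in BLZ945 tdT+ cells (-0.69 ± 0.26, SE, adjusted p = 0.0174). With the mouse as a replicate block its adjusted p was 0.0611, with edgeR it was 0.0709, and without BLZ945 tdT+ library F2 or M2 or tdT- library F2 it lay between 0.0561 and 0.0952. Entpd5, an NTPDase of the secretory pathway, was also lower in tdT- than in BLZ945 tdT+ cells (-1.14 ± 0.35, SE, adjusted p = 0.00233). Unlike Cd38, neither Enpp4 nor Entpd5 passed against vehicle tdT+ cells in DESeq2 (log2 fold change -0.47 and -0.39, adjusted p = 0.131 and 0.317).

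In the list of adenosine uptake and turnover, 11 of 11 genes were tested. Slc28a2, a concentrating nucleoside transporter, was lower in tdT- than in BLZ945 tdT+ cells (-1.20 ± 0.63, SE, adjusted p = 0.0369), with groups that overlapped. It did not pass with edgeR (adjusted p = 0.144), with only the groups compared (0.0745), nor without vehicle library F2, BLZ945 tdT+ library F1, M1 or M2 or tdT- library M1 (adjusted p between 0.0524 and 0.189). Against vehicle tdT+ cells the adjusted p of Slc28a2 in DESeq2 was 0.545. Slc29a3, a lysosomal nucleoside transporter, was higher in tdT- than in vehicle tdT+ cells (0.66 ± 0.19, SE, adjusted p = 0.00275), beside 0.0504 with edgeR. Its adjusted p against BLZ945 tdT+ cells in DESeq2 was 0.453. The 4 enzymes Ada, Adk, Pnp and Ahcy had an adjusted p above 0.05 in all comparisons, and reads of Pnp and Pnp2, which are near-identical copies, may be divided between them. None of the 6 tested genes for nucleotide release passed in any comparison.

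All 8 inflammasome genes listed were tested. Pycard, the adaptor ASC, was higher in tdT- cells, at 2594 ± 525 normalized counts against 1452 ± 222 in BLZ945 tdT+ cells (0.77 ± 0.19, SE, adjusted p = 2.02e-04) and 1705 ± 51.1 in vehicle tdT+ cells (0.53 ± 0.18, SE, adjusted p = 0.0177). The value against vehicle did not pass with edgeR (adjusted p = 0.0888), or without vehicle library F2, M1 or M2 or tdT- library M1 or M2 (adjusted p between 0.0501 and 0.0925). Il18 and Il1b, whose products the inflammasome processes, were higher in tdT- than in vehicle tdT+ cells, by 0.55 ± 0.19 and 1.44 ± 0.67 on the log2 scale (SE, adjusted p = 0.0173 and 0.0222), and the groups of Il1b overlapped. With edgeR neither passed (adjusted p = 0.121 and 0.126). Il18 also did not pass with only the groups compared (adjusted p = 0.0825) or without vehicle library F2 or M1 or tdT- library M1 or M2 (adjusted p between 0.0727 and 0.0920), nor did Il1b without vehicle library F1 or M1 or tdT- library M1 or M2 (adjusted p between 0.0818 and 0.102). Against BLZ945 tdT+ cells the adjusted p in DESeq2 was 0.142 for Il18 and 0.748 for Il1b. Txnip, a binding partner of NLRP3, was lower in tdT- than in BLZ945 tdT+ cells (-0.50 ± 0.12, SE, adjusted p = 3.76e-04). Against vehicle tdT+ cells its adjusted p in DESeq2 was 0.0895. Nlrp3, Casp1, Gsdmd and Nek7 had an adjusted p above 0.05 in all comparisons.

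**Figure D5:**
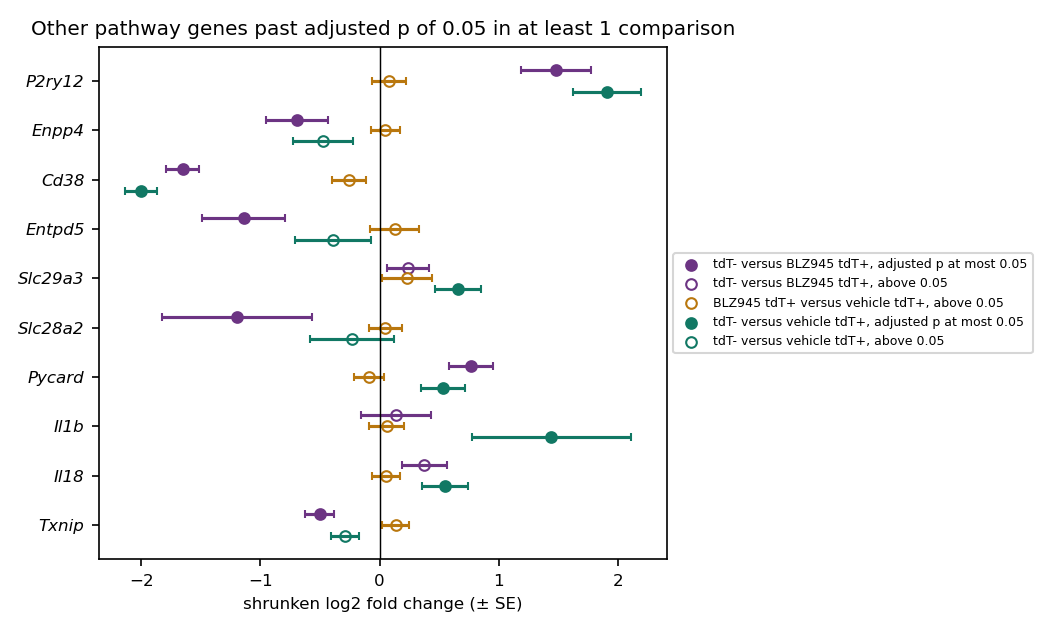
Shrunken log2 fold changes with their standard errors (x axis) of the 10 other pathway genes (y axis) that passed in at least 1 comparison. Filled points passed in DESeq2. P2ry12 and Cd38 are filled in both comparisons with tdT- cells, on opposite sides of 0, and no point of BLZ945 tdT+ against vehicle tdT+ cells is filled.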

How the data were processed

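CD206+ cells were sorted by tdT, and per the labels very little RNA entered a SMART-Seq protocol with PCR. The floors cover counting error only, whereas the SDs and SEs also hold the spread between libraries. The deposited values are raw read counts per gene symbol, which the authors obtained with featureCounts 2.0.6 from STAR 2.7.11a alignments, per the file headers from exons of GENCODE M33 (GRCm39) without strand. Exons of P2rx7 and Adora3 overlap Mir8115, and Gm53046 and Tmigd3, respectively, which had 0 counts in all 12 libraries, and counts of the near-identical pairs Entpd4 and Entpd4b, and Pnp and Pnp2, are uncertain. The submitters' processing notes also name bcl2fastq 2.20 and DESeq2 1.46.0. All 12 count columns were assigned to libraries and 0 were left over. The name of 1 vehicle column names mouse M1 although its library number is that of M2, and the number was followed. Chi-square per degree of freedom between replicates was at least 47.6, so no library was a copy of another of its group. Libraries of different groups were not compared in this way.

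As in the study's methods, a gene was removed where 75% or more of the libraries held under 10 counts (R 4.3.3). All 12 libraries entered a single DESeq2 1.42.0 fit on the remaining 13724 genes (two-sided Wald test, group as the only term, Benjamini-Hochberg adjustment over all of them) with apeglm 1.24.0 shrinkage. A gene passed at an adjusted p no higher than 0.05 and was a DEG if its shrunken log2 fold change also reached 1 or -1. Levels per kb used the deposited merged exon lengths. The genes followed and all lists were chosen with earlier results of these data known. Acp3, listed among the enzymes, was not analysed here. Genes named were the 10 genes, P2ry12, listed pathway genes that passed in any comparison and, for each of the 10 that was a DEG, the 3 genes with the most similar variance-stabilized pattern. Others were named after their values were seen, with levels or as not having passed.

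Libraries with the same label from BLZ945 mice come from the same animal, and the deviations of such pairs from their group means correlated across genes by 0.0227 to 0.0760. Vehicle and BLZ945 libraries share labels in name only. Alternatives were edgeR 4.0.16 (quasi-likelihood, TMM), TMM factors in DESeq2, no filter, only the groups compared, a replicate block, the letter of the mouse label as covariate, unshrunken fold changes, and leaving out each library. A DESeq2 fit and an edgeR fit of a single comparison were run on simulated counts, and the other settings were not tried on them.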

Additional observations from a re-analysis of the deposited data

Results flagged for a closer look

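In 6 of 28 sets of 4 libraries, 1 library stood apart from the others by Dixon's criterion (the gap to the nearest library over the whole range). The rate of about 1 in 20, or 1.4 sets, holds for continuous, normally distributed values. A set with 1 library above 0 and the others at 0 gives 1.0 whatever the count, so the number found cannot be compared with that rate. Of the 6 sets, 5 concern genes near 0. The gap over range was 0.886 for P2rx7 in vehicle tdT+ cells, where library F1 held 8942 normalized counts and the next lowest 10432.5. It was 1.0 for P2ry2 in BLZ945 tdT+ cells, where F1 held 0.920 and the others 0. For Nt5e it was 1.0 in vehicle tdT+ cells (F2 at 3.96, the others at 0), 0.952 in BLZ945 tdT+ cells (F2 at 19.4) and 0.939 in tdT- cells (M2 at 154). For Adora2a it was 0.982 in tdT- cells, where M2 held 58.3 and the next highest 1.04.

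P2rx4 and Entpd1 were lower in the tdT- than in the tdT+ library of both BLZ945 mice labeled F and higher in both labeled M. The difference in log2 fold change, M minus F, was 0.683 for P2rx4 (edgeR interaction term, adjusted p = 0.782) and 0.666 for Entpd1 (edgeR, adjusted p = 0.798). Neither passed adjustment, and the same term called 0 of 13536 genes, with 822 under an unadjusted p of 0.05.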

How the results depend on the processing

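Of the log2 fold changes of the 7 genes in 3 comparisons, 387 values under other settings kept their direction and side of the threshold, 1 lost its call, 4 gained one and 7 changed sign, all 7 when 1 library was left out of a comparison that had not passed. Over such fits the log2 fold change ran from -0.179 to 0.0581 for P2rx4 and from -0.0467 to 0.244 for Entpd1 (tdT- versus BLZ945 tdT+), from -0.0022 to 0.037 for P2rx7 (BLZ945 tdT+ versus vehicle tdT+) and from -0.0476 to 0.156 for P2ry14 (tdT- versus vehicle tdT+). In tdT- versus BLZ945 tdT+ cells edgeR called 1 of the 7 genes instead of 2 (P2rx7), and also 1 DEG, and between 1 and 2 were DEGs when 1 library was left out (P2rx7 was lost without tdT- library F2). In BLZ945 tdT+ versus vehicle tdT+ cells between 0 and 1 passed and were DEGs (Adora3 without vehicle library F2). In tdT- versus vehicle tdT+ cells between 2 and 4 passed (P2ry13 and Entpd1 were added without tdT- library F2), and 2 rather than 1 were DEGs with edgeR, TMM factors or unshrunken fold changes, with 1 to 2 when 1 library was left out, since P2rx7 lay at the limit of 1. Of the other pathway genes, edgeR called 2 instead of 6 in tdT- versus vehicle tdT+ cells, and 3 to 7 passed when 1 library was left out. In BLZ945 tdT+ versus vehicle tdT+ cells 2 (Cd38 and P2ry12) instead of 0 passed with only the groups compared and with the replicate block, which here joins different animals that share only a label, and 0 to 1 when 1 library was left out (P2rx1 without BLZ945 tdT+ library F2). Over all genes tested, edgeR called 377, 9 and 446 genes against 875, 131 and 928 with DESeq2 in tdT- versus BLZ945 tdT+, BLZ945 tdT+ versus vehicle tdT+ and tdT- versus vehicle tdT+ cells. In BLZ945 tdT+ versus vehicle tdT+ cells the count was 256 without the filter, 325 with only the groups compared and 367 with that block. In tdT- versus vehicle tdT+ cells, where the block joins different animals too, the adjusted p was 0.0804 for Pycard and 0.187 for Il18. In the paired fit with the mouse as replicate block, within BLZ945 mice, the adjusted p was 5.69e-10 for P2rx7 and 9.03e-05 for Adora3, and the block changed no other call of the 7 genes. The cause of these shifts was not tested. Depth limits what can be said of P2ry2, Nt5e and Adora2a, whose counts were few or 0 in most libraries. Most counts of Nt5e and Adora2a lay in tdT- library M2, at 161 and 61.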
